A study of Rattus norvegicus with 22 samples.

Results

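The simple epithelial keratins Krt7, Krt8, Krt18 and Krt19 were described in tongue tissue of rats with oral squamous cell carcinoma (OSCC). The 4 genes were chosen by the gene name printed on the array, where each has 1 probe, so 4 of 30367 probes were followed. Tissue came from 11 male F344 rats that drank water with 20 ppm of the carcinogen 4-nitroquinoline-1-oxide (4-NQO) over 10 weeks, and was taken 23 to 26 weeks after dosing began, at an age of about 33 weeks. Each rat gave an OSCC piece and a piece of adjacent, phenotypically normal tongue, so there were 22 one-color arrays in 2 groups of 11. The array titles and treatment labels call the normal tissue untreated, whereas the protocols and the study's methods place it in the same 4-NQO-treated rats; it is called normal below, and no rat without 4-NQO was analysed here. Both groups are whole pieces of tissue, in which fewer cells of a type and less RNA per cell cannot be told apart.

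Keratins are the intermediate filaments of epithelial cells and form from a type I and a type II chain. Krt8 and Krt7 are type II chains, and Krt18 and Krt19 are type I chains; Krt8 with Krt18 is the primary pair of simple, single-layered epithelia, including gland acini, while Krt7 and Krt19 are common in ducts. The stratified surface of the tongue is built instead on Krt5 and Krt14 in its basal layer and on Krt4 and Krt13 above it. Minor salivary glands, among them the serous glands of von Ebner, lie between the muscle bundles of the tongue.

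The probes are shown because each gene's measurement rests on 1 stretch of 60 bases. In the array's rn4 annotation the Krt8 probe lies on the minus strand at chr7:140716967-140717949, a span of 983 bases that is longer than the probe, and the Krt19 probe on the minus strand at chr10:89081437-89081496. The Krt7 probe carries no position. The Krt18 probe is annotated to chr2:80044505-80044563, away from the Krt18 gene on chromosome 7, so a near-identical copy could share its signal. Only the last 30 bases of the Krt18 probe are printed; its capitals mark a polyadenylation signal, AATAAA, and no reading frame of the whole probe is free of stop codons.
Krt7 probe: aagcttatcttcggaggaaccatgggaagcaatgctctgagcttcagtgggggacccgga
Krt8 probe: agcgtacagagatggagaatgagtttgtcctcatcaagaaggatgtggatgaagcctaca
Krt18 probe, last 30 bases: actgagggaccAATAAAagtttagaatcca
Krt19 probe: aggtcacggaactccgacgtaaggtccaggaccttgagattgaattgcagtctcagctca

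In RefSeq's GRCr8 gene table Krt8 and Krt18 are neighbouring protein-coding genes on chromosome 7, where Krt7 also lies, and Krt19 lies on chromosome 10 between Krt15 and Krt9. Promoter sequence from RefSeq (GRCr8) was at hand for 2 of the 4 genes, Krt8 and Krt18, and a stretch upstream of each annotated start is shown because these neighbours form a filament pair. The capitals mark TATAAA, 104 bases before the annotated start of Krt8, and GGGCGG, 84 bases before that of Krt18. Searched on both strands of the 250 bases before the start, TATAAA was in 12.93% and GGGCGG in 30.47% of 33469 promoters. In Krt8 the forward TATAAA overlaps a match on the other strand. Neither window held TGANTCA, the AP-1 motif, which was in 6.34% of promoters, or CCAAT, which was in 34.02%.
Krt8, minus strand, chr7:135010418-135010513: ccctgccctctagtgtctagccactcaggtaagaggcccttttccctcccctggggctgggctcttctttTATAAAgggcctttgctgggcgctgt
Krt18, plus strand, chr7:135036014-135036109: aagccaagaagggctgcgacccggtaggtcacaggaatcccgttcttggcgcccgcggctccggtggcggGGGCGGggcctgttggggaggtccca

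The 75th percentile of processed signal, to which each array was scaled, was between 236.8 and 654.9 intensity units in normal tissue and between 338.7 and 1414 in OSCC, and 48.4% to 56.1% and 52.3% to 65.5% of probes were well above background. Levels are given below as log2 of signal relative to that percentile, so 0 is the level of the 75th percentile. All 11 normal arrays and the OSCC arrays of animals 4 and 9 shared 1 scan day, while the remaining 9 OSCC arrays had a second one; no slide held both tissues. For those 9 pairs, scan day and tissue cannot be told apart.

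The first comparison asked whether the keratins differed between OSCC and adjacent normal tissue of the same rat. Krt8, Krt18 and Krt7 rose in OSCC, and Krt19 did not pass the test. The fitted differences were 4.32 for Krt8 and 3.19 for Krt7 on the log2 scale. They are set mostly against normal values at background, since only 2 and 1 of 11 normal arrays were above it. Krt18 rose by at least 12.9-fold, since no normal array measured it. A call needed an adjusted p below 0.05 over all probes, by limma with animal as a block, and a change of at least 2-fold. By this rule 3 of the 4 keratins were called higher, where 6.86% of all 30367 probes were called higher, 6.97% lower and 13.8% in either direction. The median difference over all probes was -0.24.

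Krt8, the type II chain that simple epithelia start from, was between -5.49 and -3.58 in normal tissue, with a median of -4.71, and was well above background on 2 of 11 normal arrays. In OSCC it was between -5.33 and 2.50, with a median of 0.33, and above background on 10 of 11 arrays. In OSCC, 10 pieces lay above the highest normal piece, and the piece of animal 22 lay among the normal ones. The difference was 4.32 ± 0.54 (SE, n = 11 pairs; 95% interval 3.15 to 5.49; adjusted p = 0.00027, limma), a 20.0-fold ratio. That ratio is set mostly against normal values at background. In 10 of 11 pairs OSCC was higher, by 2.53 to 6.66, and in the pair of animal 22 neither piece was above background.

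Krt18, the type I partner of Krt8, was not above background on any normal array, where its values lay between -5.94 and -3.72 with a median of -4.43. In OSCC it was between -5.98 and 4.67, with a median of 0.00, and was above background on 9 of 11 arrays. The pieces of animals 22 and 26 were not above background, and the values of the other 9 exceeded every normal value. OSCC was at least 12.9-fold higher; the fitted difference was 4.59 ± 0.95 (SE, n = 11 pairs; adjusted p = 0.0032, limma), and 9 of 11 pairs were higher in OSCC, neither piece of animals 22 and 26 being above background. A lower bound is given because normal tissue gave no measured level, and it was set against the dimmest probe well above background on each array.

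Krt7, a type II chain of ducts and transitional epithelium, was between -4.61 and -0.39 in normal tissue, with a median of -4.03. Its only normal value above background, -0.39, was that of animal 24, and the next highest was -3.34. In OSCC it was between -4.97 and 2.09, with a median of 0.07, and above background on 9 of 11 arrays, the exceptions being animals 21 and 22. Only 7 OSCC pieces exceeded the normal piece of animal 24. The difference was 3.19 ± 0.71 (SE, n = 11 pairs; adjusted p = 0.0045, limma), with 8 of 11 pairs higher in OSCC, 1 lower and 2, of animals 21 and 22, with neither piece above background; without the normal array of animal 24 it was 3.55 (adjusted p = 0.0021).

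Krt19, a type I chain that has no tail domain, was measurable in most normal tissue, with 9 of 11 normal arrays above background and values between -4.03 and -1.42 (median -2.65). In OSCC the values spread from -4.59 to 1.97 around a median of -1.72, and 10 of 11 arrays were above background. The groups overlapped, since 5 OSCC pieces exceeded the highest normal piece and 4 lay below the median of normal tissue. The difference was 1.24 ± 0.55 (SE, n = 11 pairs; 95% interval 0.04 to 2.44; adjusted p = 0.082, limma), and 7 of 11 pairs were higher in OSCC, 3 lower and 1 with neither piece above background.

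**Figure D1:**
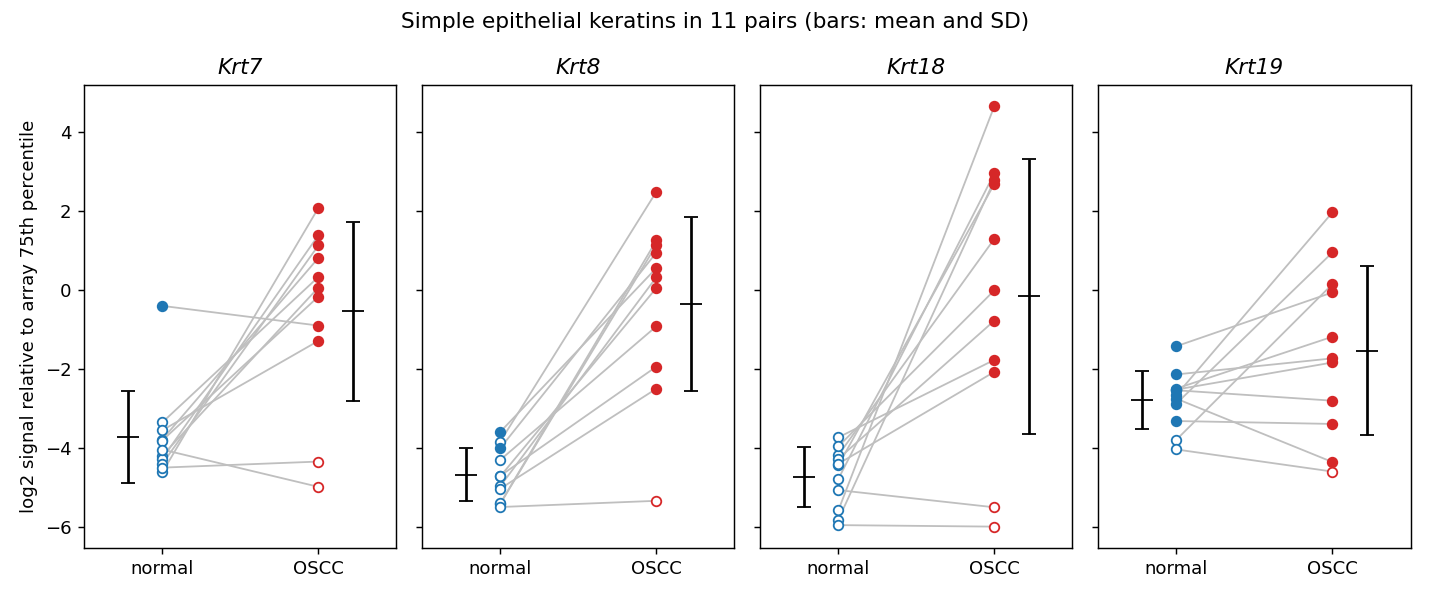
Log2 signal relative to the array's 75th percentile (y axis) of Krt7, Krt8, Krt18 and Krt19 in normal tissue and OSCC (x axis), with a line joining the 2 pieces of each of 11 rats, filled points above background and open points not, and black bars for mean and SD. Krt8 was higher in OSCC in 10 of 11 pairs and at background in both pieces of the other. The values of Krt19 spread more widely in OSCC than in normal tissue. Normal values of Krt7, Krt8 and Krt18 were mostly or all at background, so their spread was not measured.

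The SD in OSCC was 2.27, 2.20, 3.48 and 2.15 for Krt7, Krt8, Krt18 and Krt19, against 1.17, 0.67, 0.76 and 0.73 in normal tissue. In that order, 1, 2, 0 and 9 of 11 normal arrays were above background. The normal spread of Krt7, Krt8 and Krt18 was therefore not measured, and their SDs cannot be compared between tissues. In the 2 pairs scanned on the same day, those of animals 4 and 9, all 4 genes were above background in OSCC. In animal 4 both pieces were above background for Krt8 and Krt19, which were higher in OSCC by 4.15 and 0.41. The other OSCC values of these pairs were set against normal pieces not above background, so only the OSCC levels were measured: 2.09 and 0.07 for Krt7 and 1.31 and 2.79 for Krt18 in animals 4 and 9, and 1.15 for Krt8 and 0.16 for Krt19 in animal 9. A fit to these 2 pairs alone called 43.7% of all probes. With scan day as a term, the adjusted p rose to 0.085 for Krt7, Krt8 and Krt18, and 0.00988% of all probes were called.

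A probe for a keratin 8-like sequence, annotated to chr11:64864619-64864678 in rn4, was read as a neighbour of the Krt8 measurement. Its difference was 3.47 ± 0.48 (SE, n = 11 pairs; adjusted p = 0.00041, limma), with 11 of 11 pairs higher in OSCC. Its OSCC value was lowest in animal 22 and highest in animal 17, as that of Krt8 was. Whether it reports Krt8 transcripts was not tested.

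The second comparison asked whether the keratins followed gland genes from 1 OSCC piece to another. Krt18 and Krt19 rose with Vegp2, a lipocalin secreted by von Ebner glands, and Krt8 did so in rank order without passing the test over all probes. Krt7 did not pass it. Vegp2 was between 0.10 and 10.22 in OSCC, in the order of animals 17, 24, 16, 9, 4, 11, 21, 13, 22, 25 and 26. The 5 pieces highest in Vegp2 lay at 8.08 to 10.22, and the 3 lowest at 0.10 to 1.46, with a widest gap of 29.1% of the range.

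The slope of Krt18 on Vegp2 was 0.87 ± 0.10 log2 units per log2 unit (SE, 11 arrays; adjusted p = 0.0020, limma over all other probes). Its Pearson r was 0.94 (permutation p = 1e-05, the smallest that the resamples can give) and its Spearman rho 0.94 (permutation p = 9e-05). Without animals 25 and 26, the farthest from the median of Vegp2, r was 0.97, and among the 9 pieces of the second scan day it was 0.93 (exact permutation p = 0.00073). In 30366 probes fitted this way, 0.372% had a called positive slope and none a called negative one.

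Krt19 had a slope of 0.50 ± 0.08 (SE, 11 arrays; adjusted p = 0.028, limma), with r of 0.88 (permutation p = 0.00076) and rho of 0.93 (permutation p = 0.00012). Its r was 0.87 without the 2 farthest pieces and 0.89 within the second scan day. The call was lost on leaving out any 1 of 7 animals, with slopes from 0.45 to 0.57 over all 11 omissions and an adjusted p of up to 0.12. The Krt19 value of animal 13 stood lowest for its Vegp2 level, at -4.35 with Vegp2 at 4.40.

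Krt8 had a slope of 0.45 ± 0.11 (SE, 11 arrays; adjusted p = 0.22, limma), with r of 0.77 (permutation p = 0.0038) and rho of 0.89 (permutation p = 0.00051). The piece of animal 25 stood off this line, with Krt8 at 0.06 and Vegp2 at 0.52. Without animals 25 and 26, r rose to 0.94 and the slope to 0.74 (adjusted p = 0.016, limma); within the second scan day r was 0.74. Without animal 25 alone the slope was 0.59 (adjusted p = 0.040, limma).

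Krt7 had a slope of 0.23 ± 0.17 (SE, 11 arrays; adjusted p = 1.00, limma), with r of 0.38 (permutation p = 0.26) and rho of 0.23 (permutation p = 0.50). Its 2 pieces at background came from animals 21 and 22, with Vegp2 at 4.93 and 1.46. Animal 25 was at 0.34 for Krt7, within the range of the 5 pieces highest in Vegp2. Krt7 was at its highest, 2.09, in animal 4.

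**Figure D2:**
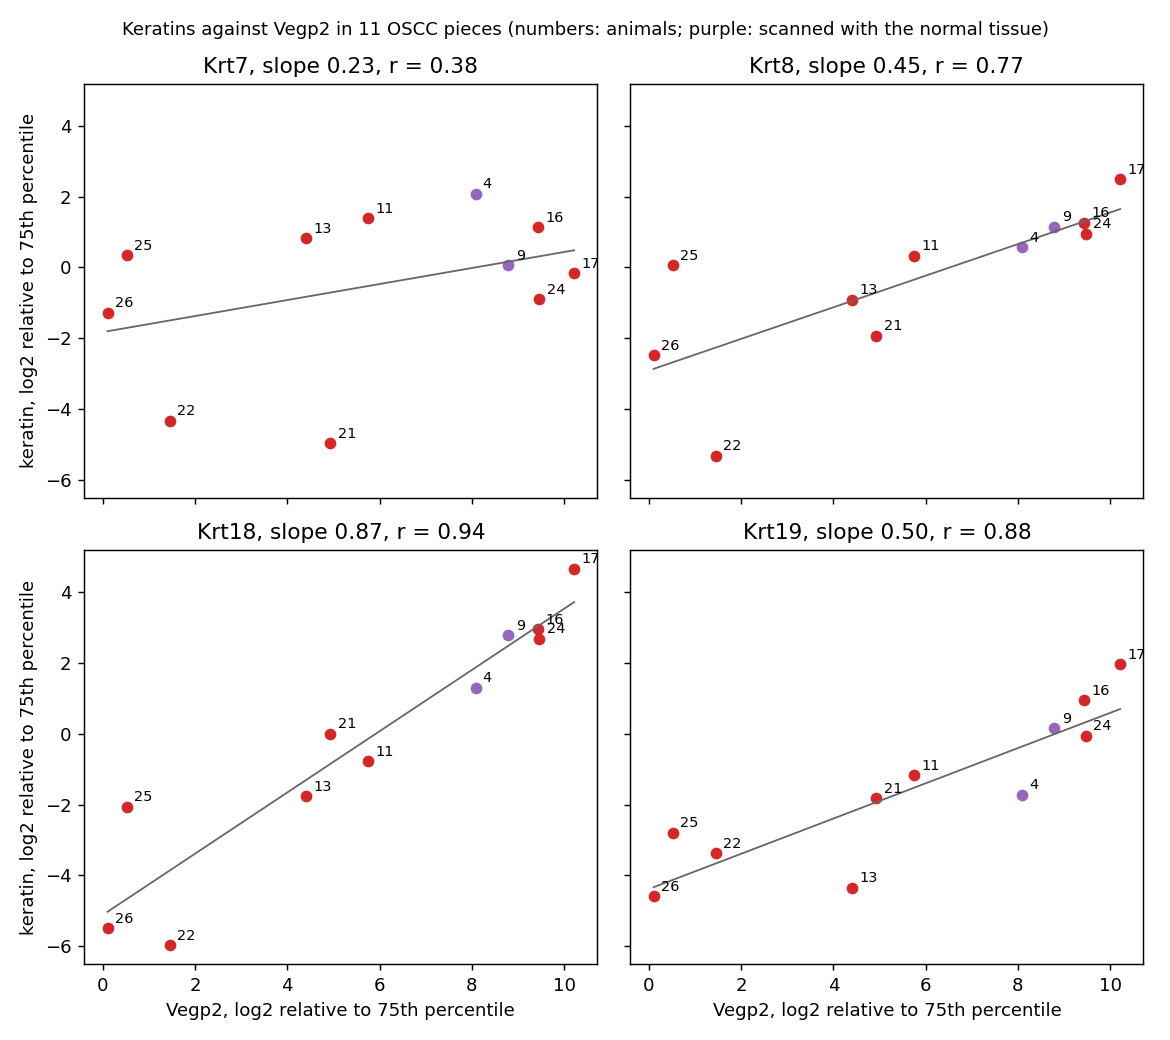
Log2 level of each keratin (y axis) against that of Vegp2 (x axis) in 11 OSCC pieces, both relative to the array's 75th percentile, with the animal's number beside each point, a least-squares line, and purple for the 2 pieces scanned with the normal tissue. The slopes are 0.23 for Krt7, 0.45 for Krt8, 0.87 for Krt18 and 0.50 for Krt19.

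The differences between these slopes were tested for the 6 pairs of keratins, a test added after the slopes were known, with p adjusted over the pairs. The slope of Krt18 exceeded that of Krt8 by 0.42 ± 0.08 (SE, adjusted permutation p = 0.0073), that of Krt19 by 0.37 ± 0.10 (adjusted permutation p = 0.012) and that of Krt7 by 0.64 ± 0.20 (adjusted permutation p = 0.030). Among Krt7, Krt8 and Krt19 no pair differed past 0.05, and the largest of these differences was 0.27 ± 0.22 (SE) for Krt19 over Krt7. Values at background, which Krt18 and Krt7 had in 2 pieces each and Krt8 and Krt19 in 1 each, have no measured order and limit these slopes.

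The same keratins were set against the mean level of other gene lists in the same pieces. Against 12 acinar regulators and fluid secretion genes, Krt18 had r of 0.94 (adjusted p = 0.00044, limma) and Krt19 r of 0.93 (adjusted p = 0.0010, limma), where 1.36% of probes had a called positive and 0.0296% a called negative slope. Krt8 had r of 0.78 (adjusted p = 0.077) and Krt7 r of 0.25 (adjusted p = 0.94). Against the mucous gland genes r was 0.91 for Krt18 and 0.93 for Krt19, both called (1.5% of probes with a positive and 0.0362% with a negative slope), 0.73 for Krt8 and 0.15 for Krt7. Against 22 other simple epithelium genes r was 0.86 for Krt18 and 0.87 for Krt19, both called (1.4% of probes with a positive and 0.0461% with a negative slope), 0.77 for Krt8 and 0.38 for Krt7.

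The mean of the 8 serous gland products split the OSCC pieces into 2 clusters with a gap of 33.3% of the range, so only the 6 pieces of the lower cluster were used. There Krt18 had a slope of 0.74 (r = 0.78, exact permutation p = 0.094), and none of the probes tested there had a called slope. In all, 48 relations of a keratin with a gene, a list or another keratin were computed. Against the duct transport genes, with 8 pieces left by a gap of 46.7%, r was -0.07 for Krt7, 0.09 for Krt8, 0.34 for Krt18 and 0.26 for Krt19, none called. The pieces left out there, of animals 9, 16 and 17, were the highest in Krt8, Krt18 and Krt19. Those r values therefore cannot be set beside the ones over 11 pieces. Against the stratified keratins, in the 10 pieces without animal 24, r was 0.60 for Krt7, 0.65 for Krt8 (permutation p = 0.048), 0.52 for Krt18 and 0.34 for Krt19, none called. Without the 2 pieces farthest from the median of that list these were 0.22, -0.05, -0.05 and 0.01. Against the immune genes, within 8 pieces, r was between -0.34 and 0.51, none called. Against the skeletal muscle list, within 8 pieces, Krt7 had a slope of -1.28 (r = -0.74, exact permutation p = 0.042; adjusted p = 0.083 by limma), where 8.37% of probes had a called positive and 3.54% a called negative slope.

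**Figure D3:**
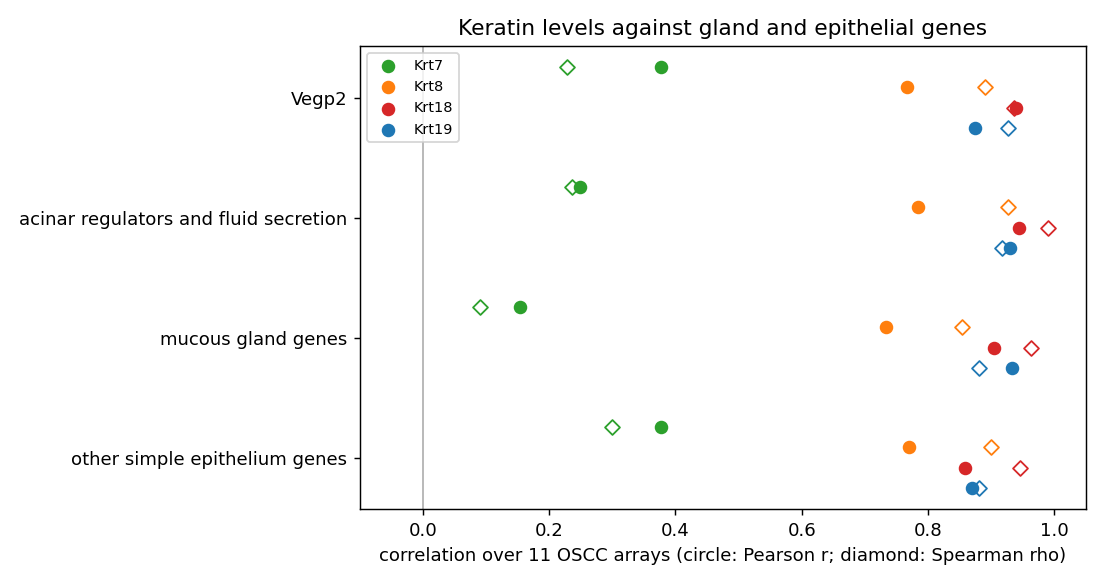
Correlation over 11 OSCC arrays (x axis; circles Pearson r, diamonds Spearman rho) of Krt7, Krt8, Krt18 and Krt19, by color, with Vegp2 and with the mean of 3 gene lists (y axis). Krt18 and Krt19 have r of 0.86 or more against all 4 measures, and Krt7 has r of 0.38 or less.

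Among themselves, Krt19 and Krt18 moved together over 11 pieces (r = 0.90, adjusted p = 0.0098, limma), and Krt8 followed Krt19 with r of 0.76 (adjusted p = 0.14, limma). Krt8 and Krt18, the filament pair, were compared over the 10 pieces left when animal 22, which stood apart in Krt8, was set aside: r was 0.86 (permutation p = 0.0011), and the slope was not called (adjusted p = 0.16, limma). Over the 9 pieces in which Krt18 was above background r was 0.77 (exact permutation p = 0.012; adjusted p = 0.15, limma). Krt7 and Krt8, both type II chains, had r of 0.24 and rho of 0.05 over the 9 pieces in which Krt7 was above background (exact permutation p = 0.535 for r), and r of 0.52 over 10 pieces with animal 21 included (permutation p = 0.13). Over all probes, 0.873% had a called positive and 0.00988% a called negative slope on Krt19, 1.53% and 0.0889% on Krt18, and 0.00329% a positive one on Krt7 and the same share on Krt8.

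Gland genes were also compared between OSCC and normal tissue. The 8 serous products are all among the genes that the study lists as most increased in OSCC of these same pairs. Their calls therefore follow from that listing and are no separate result. Bhlha15, named below, is listed there too. All 8 serous products were called higher: Vegp2 by 9.41 on the log2 scale, Vegp1 by 9.69, the secreted protein Bpifb1 by 9.24, the lipase Lipf by 8.73 and the amylase Amy1a by 6.62. Vegp2, Vegp1, Bpifb1 and Lipf were above background on only 4, 2, 3 and 3 of 11 normal arrays. Their differences are thus set mostly against normal values at background, whereas Amy1a was above it on 9 normal arrays. For Bpifa1, common salivary protein 1 (LOC171161) and the proline-rich protein Prb1, which no normal array measured above background, OSCC was at least 75.8-fold, 86.8-fold and 44.9-fold higher. Of 12 acinar and fluid secretion genes, 7 were called higher, among them the water channel Aqp5 (at least 7.35-fold), the secretory cell transcription factor Bhlha15 (at least 7.72-fold), the immunoglobulin transporter Pigr (at least 3.80-fold) and Agr2, a protein folding factor (10.3-fold). Agr2 was above background on 2 of 11 normal arrays. Over all probes, 6.86% were called higher.

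Of 8 mucous gland genes on the array, 7 were above background on some array and 5 were called higher, with Fcgbp at least 4.04-fold, Gcnt3 at least 2.38-fold, the goblet cell regulator Spdef at least 2.15-fold and Creb3l1 5.55-fold higher. Of 11 duct transport genes on the array, only 7 were above background on some array; none was called higher, the sodium channel subunit Scnn1a fell by 1.12 on the log2 scale, and Scnn1g differed by 0.95 (adjusted p = 0.021), under the 2-fold rule. Of all probes, 6.86% were called higher and 6.97% lower. Aqp5, which was not above background in any normal piece, was highest in animal 17 (4.79) and not above background in animals 13, 22, 25 and 26. The part of gland tissue in the keratin differences was not tested.

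**Figure D4:**
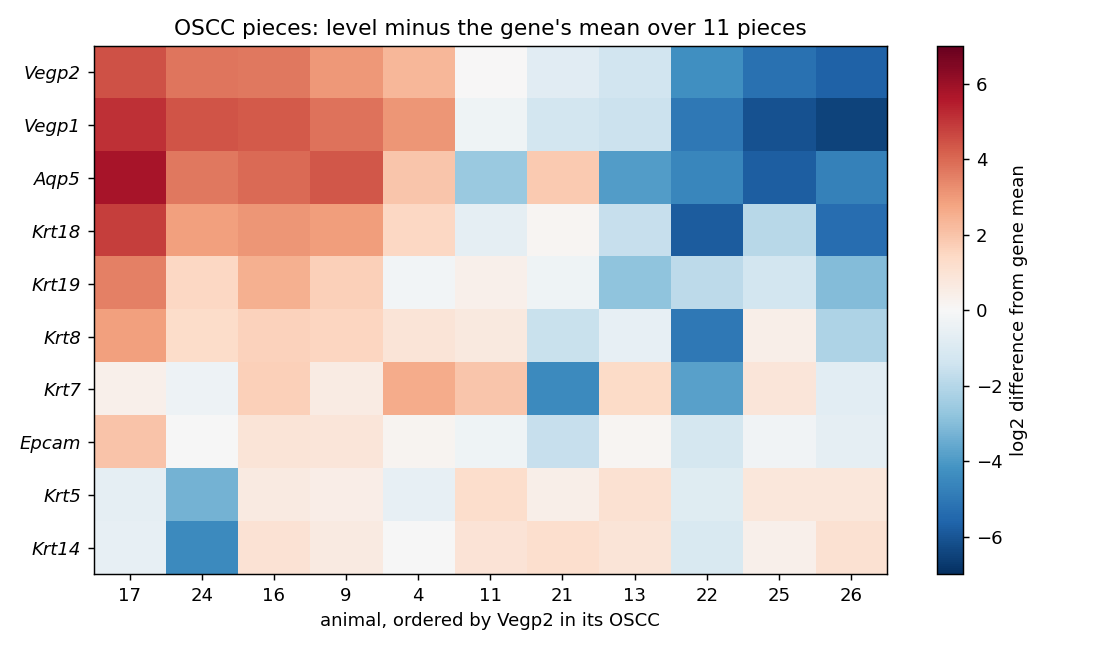
Log2 level minus the gene's mean over 11 OSCC pieces (color) for gland genes, the 4 simple keratins, Epcam and the basal keratins Krt5 and Krt14 (rows), with animals ordered from high to low Vegp2 (columns). On the scale of the text Krt18 is 4.67 in animal 17, at the high end. At the low end Krt18 is -2.06 in animal 25 and not above background in animal 26. Krt7 is highest in animal 4 (2.09).

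Other genes of simple epithelium were changed in part, where 6.86% of all probes were called higher and 6.97% lower. Of 22, 7 were called higher and none lower, among them the claudin Cldn10 by 3.82, the transcription factor Ehf by 2.93, Krt20 by 2.71 and the claudin Cldn7 by 2.24. Cldn10, Ehf and Krt20 were above background on only 3, 2 and 1 of 11 normal arrays, and Cldn7 on 9. Epcam, a general epithelial adhesion molecule, differed by 0.53 (adjusted p = 0.14). None of 11 keratin filament linkers and crosslinkers passed the 2-fold rule. Some had an adjusted p below 0.05: the periplakin gene Ppl differed by 0.99, and the plectin gene Plec by -0.72, Evpl by -0.78 and Dst by -0.79.

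The stratified keratins were read the same way, with no test of the difference between the lists. Among all probes, 6.86% were called higher and 6.97% lower. Of 10 measured, Krt10 of suprabasal cells was called higher by 1.66, and Krt15 of basal cells fell by 2.54, in 11 of 11 pairs. Krt5 differed by -0.08 (adjusted p = 0.87) and Krt14 by 0.29 (adjusted p = 0.60). Krt16 differed by 2.28 (10 of 11 pairs higher, adjusted p = 0.065), Krt1 by 1.69 (9 of 11 pairs, adjusted p = 0.083) and Krt17 by 0.96 (9 of 11 pairs, adjusted p = 0.13), none of them called. In the other direction, Krt24 differed by -1.75 (3 of 11 pairs higher, adjusted p = 0.073, limma). Krt4 differed by -0.82 (2 of 11 pairs higher, adjusted p = 0.11, limma), and neither was called. The basal keratins were lowest in the OSCC piece of animal 24, at 2.34 for Krt5 and 2.94 for Krt14, where Krt18 was 2.70 and Vegp2 9.47. The median difference of the list was 0.11, and that of the 4 simple keratins 3.75.

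Markers of other cells were read beside these, where 6.86% of all probes were called higher and 6.97% lower. Of 5 Merkel cell genes, which matter because Merkel cells also carry Krt8 and Krt18, Krt20 was called higher, Isl1 was at least 6.02-fold lower in OSCC, where no array measured it above background, and Piezo2 fell by 1.13; Atoh1, their defining factor, was above background on 1 array of each group. Of 9 taste cell genes on the array, the receptor Tas1r1 fell by 1.77 and none was called higher, Car4 differed by 0.90 (adjusted p = 0.076), and Trpm5 was not above background anywhere. Skeletal muscle had 6 of 10 genes called lower, of which Myh4 fell by 4.47 on the log2 scale and Mb, myoglobin, fell by 2.43 and Ckm fell by 2.19, while Myh2 was called higher by 2.17. Their summed level relative to the 75th percentile spanned 1395 to 2843 in normal tissue and 89.8 to 2947 in OSCC.

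Immune genes were called higher in 7 of 9, with Csf3r of neutrophils 10.0-fold, Itgam 4.38-fold, Cd14 4.31-fold and Cd68 of macrophages 4.01-fold higher, and fibroblast genes in 5 of 7, with Lum 3.18-fold higher. No gene of 6 for endothelium or 8 for proliferation passed both thresholds. The share of all probes called higher was 6.86%, and 13.8% were called in either direction. The part of these cell types in the keratin differences was not tested.

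The genes whose levels were most like each keratin over the 11 OSCC pieces were read from 12266 gene symbols, as a description. For Krt18 these were LOC303341 (r = 0.99), LOC171161 (0.97), RGD1565709 (0.96), Pax1 (0.96) and Pon3 (0.95). For Krt19 they were Syne4 (0.97), Plet1 (0.96), Slc38a5 (0.96), Serpina1 (0.96) and Cldn2 (0.96).

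For Krt8 they were Kcnn4 (r = 0.96), Cxadr (0.94), Cldn7 (0.94), C5h1orf122 (0.93) and Slc39a8 (0.93), of which Kcnn4 is also in the acinar list and Cldn7 in the simple epithelium list. For Krt7 they were Camkk2 (0.93), Pggt1b (0.92), Dcaf10 (0.92), Thbs1 (0.92) and Zdhhc6 (0.91). LOC171161, beside Krt18, was the only serous gland product among these 20 names.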

How the data were processed

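RNA of 11 pairs of OSCC and adjacent normal tongue was measured on one-color Agilent rat arrays. The authors deposited scanner intensity values made with Agilent Feature Extraction 9.5.3.1, background-subtracted and detrended, and a table of the ratio of each signal to its array's 75th percentile. From the processed intensity, control and outlier spots (0.975%) were dropped, spots of a probe were averaged, and log2 values were centred on the array's 75th percentile. A limma model (version 3.58.1, R 4.3.3) of tissue with the animal as a block was fitted to 30367 probes, and p was adjusted over them by Benjamini-Hochberg. Slopes on Vegp2 were fitted to all probes over the OSCC arrays, and correlations were tested by 100000 permutations, or exactly under 10 arrays. Where the widest gap in a measure exceeded 30% of its range, only the larger cluster was used. Pairs come from the same rat; the deviations of paired pieces correlated between -0.21 and 0.24. A probe was well above background where most of its spots were, and the number of arrays limits precision. Named genes were the 4 keratins, the serous products and the 5 genes most like each keratin. Up to 4 genes of each other list were also named (called ones by size, then the largest uncalled one). Epcam, the keratin 8-like probe, Trpm5, Krt1, Krt4, Krt5, Krt14, Krt17, Krt24, Plec, Evpl and Dst were added after their values were seen. The keratins and lists were chosen with earlier results of these data known. The fits were tested on simulated data with independent noise and no animal effect, scan-day effect or background floor. Those features of the real data were thus not tested. RefSeq tables of GRCr8 gave current symbols for 17679 probes.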

Additional observations from a re-analysis of the deposited data

How the results depend on the processing

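The rises of Krt7, Krt8 and Krt18 kept their direction under every alternative that gave a value, and their call under all but scan day as a term. With that term the differences were 5.48, 5.35 and 7.04 and the calls were lost. The fit to only the 2 pairs scanned on 1 day gave the same differences, since only these pairs separate tissue from scan day. That fit has too few arrays for its p, so the calls it kept carry no weight. Values for Krt18 are fitted against normal arrays that did not measure it, and those for Krt7 and Krt8 mostly against such arrays. Leaving out each animal gave differences of 2.83 to 3.60 for Krt7, 4.09 to 4.74 for Krt8, 4.02 to 5.09 for Krt18 and 0.90 to 1.53 for Krt19. With normexp background correction the differences were 1.77, 2.09, 2.48 and 0.52. In the 2 pairs scanned on 1 day Krt19 differed by 2.17 and became called, in a fit with too few arrays for its p to be read. Probes called numbered 4201, against 1701 with normexp, 3 with scan day as a term, 13265 in those 2 pairs, 6924 without replicates 21, 22 and 24, and 3649 to 4799 without each animal. Array median scaling split the calls into 1541 higher and 3154 lower, against 2083 and 2118, and scalings moved the median over all probes between -0.44 and -0.03. Without the replicate block, that is without the pairing of animals, 4227 probes were called and the differences of the keratins were unchanged at 3.19, 4.32, 4.59 and 1.24, with no call changed. A filter on dim probes left no value for Krt7 and Krt18, and no other probe of the same gene name was on the array.

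For the slopes on Vegp2, the Krt18 slope lost its call only with the mean of serous products in 6 pieces (0.74). The Krt19 slope lost it there (0.30) and with quantile normalization (0.50), normexp (0.31), the second scan day alone (0.53), without replicates 21, 22 and 24 (0.52), without the 2 farthest pieces (0.60) and without the 3 pieces lowest in Vegp2 (0.76), the last chosen after seeing the data. The Krt8 slope gained a call without the 2 farthest pieces (0.74). Without each animal, slopes were 0.12 to 0.33 for Krt7, 0.33 to 0.59 for Krt8, 0.78 to 1.00 for Krt18 and 0.45 to 0.57 for Krt19. The cause of these changes was not tested.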
